A study of Mus musculus with 48 samples.

Results

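The MS effect in wildtype amygdala was the comparison of 8 MBD-seq libraries of Tph2+/+ mice exposed to maternal separation (MS) with 8 libraries of Tph2+/+ control (C) mice. These 16 of the 48 libraries of the series were chosen by their labels for genotype and condition, and all 187695 loci of the count table were tested in them. All 16 animals were C57BL/6 males (the C57BL/6N substrain in the study's methods) with intact Tph2, which encodes the serotonin-producing enzyme of the brain, and were 4 months old at dissection. MS pups were taken from their dams for 3 h per day from postnatal day 2 through 15, while C litters stayed with theirs. Both groups came from Tph2+/- parents and had been through anxiety and aggression tests before the amygdala was taken, and the labels do not say which animals were littermates. Each library stands for 1 animal, and in MBD-seq the methyl-CpG-binding domain of a protein pulls down sheared DNA that carries methylated CpG, so that the count of a locus rises with its methylation, its number of CpG and its number of copies in the genome. Totals ran from 9.04 to 12.7 Mcounts (units of 1e6 counts) per library. A change in a few cells and a small change in all cells of the dissected tissue cannot be told apart.

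DNA methylation adds a methyl group to cytosine, in mammals mostly where a guanine follows, and is written and kept by DNA methyltransferases and oxidised by TET enzymes. Gene starts rich in CpG are mostly unmethylated, while gene bodies, the spaces between genes and transposable elements are mostly methylated. The amygdala processes threat and social signals, receives dense serotonin input from the raphe nuclei, and is a common target of studies on early-life stress.

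Sequences of 6 leading loci of the comparison are printed first, to show the CpG that the capture reads. Each run is the stretch of 200 bases with the most CpG in its locus on the plus strand of GRCm38 (RefSeq sequence), with every CpG in capitals. The first 3 belong to loci higher in MS, and the next 2 to loci lower in MS. The last is from a higher promoter locus.
Near Gm48390, chr13:59927487-59927686, plus strand: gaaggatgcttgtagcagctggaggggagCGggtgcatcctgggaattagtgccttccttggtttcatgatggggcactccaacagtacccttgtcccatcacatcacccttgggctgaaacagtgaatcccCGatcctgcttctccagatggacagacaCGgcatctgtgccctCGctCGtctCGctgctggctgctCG
Near Gm43384, chr5:61665556-61665755, plus strand: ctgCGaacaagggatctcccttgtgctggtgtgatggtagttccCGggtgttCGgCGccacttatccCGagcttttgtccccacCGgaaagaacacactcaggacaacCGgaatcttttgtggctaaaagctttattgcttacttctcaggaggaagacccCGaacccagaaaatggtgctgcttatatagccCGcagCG
Cdk14 intron, chr5:5382001-5382200, plus strand: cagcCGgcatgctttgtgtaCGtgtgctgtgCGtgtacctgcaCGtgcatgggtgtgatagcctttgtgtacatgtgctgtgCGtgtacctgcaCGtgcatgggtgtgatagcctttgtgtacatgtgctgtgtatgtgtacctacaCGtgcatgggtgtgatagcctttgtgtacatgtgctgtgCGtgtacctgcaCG
Near Gm24212, chr8:89694104-89694303, plus strand: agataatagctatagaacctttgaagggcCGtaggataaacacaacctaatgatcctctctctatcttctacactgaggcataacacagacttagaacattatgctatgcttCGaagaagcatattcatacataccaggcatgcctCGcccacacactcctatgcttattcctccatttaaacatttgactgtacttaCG
Near Gm15427, chr1:95451865-95452064, plus strand: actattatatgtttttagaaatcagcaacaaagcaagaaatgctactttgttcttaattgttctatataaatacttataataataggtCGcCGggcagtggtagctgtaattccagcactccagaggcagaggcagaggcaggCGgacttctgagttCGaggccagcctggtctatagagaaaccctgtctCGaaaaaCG
Gm7544 promoter, chr1:82955611-82955810, plus strand: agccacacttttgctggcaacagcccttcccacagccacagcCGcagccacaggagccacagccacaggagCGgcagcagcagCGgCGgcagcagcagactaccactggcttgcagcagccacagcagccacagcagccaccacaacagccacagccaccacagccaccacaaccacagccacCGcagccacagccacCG
The 3 higher windows hold 7, 10 and 9 CpG and the 2 lower windows 4 and 6. The Gm7544 window holds 6.

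No locus differed between MS and C at an adjusted p below 0.05 (edgeR quasi-likelihood F-test with Benjamini-Hochberg adjustment over all loci), and the smallest adjusted p was 0.592. The study's own limits, an unadjusted p below 0.01 with a log2 fold change beyond 0.2, were met at 2465 loci, 1.31% of those tested. The study had set these limits on its contrasts for the interaction of genotype and MS. Of these, 1258 were higher in MS (0.67%) and 1207 were lower (0.643%). An unadjusted p below 0.05 was met at 12241 loci, 6.52% of all. DESeq2 and limma voom had 13188 and 12285 such loci, and these and each of the other fits likewise gave 0 loci at the adjusted limit. A locus is named higher or lower below where it met the study limits. These are unadjusted calls, and the share expected to be false is not held at any level. Most loci named below were picked for a small p or a large fold change. That choice favours groups that do not overlap and calls that hold in refits of the same libraries. Neither is support for a locus, and the share of all loci without overlap was not computed.

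The loci that were higher and those that were lower in MS were of different kinds. Higher loci were wide and highly covered, with a median width of 1113.5 bp and a median mean count of 43.9 per library, against 848 bp and 22.7 counts for lower loci. Over all loci these medians were 916 bp and 26.96 counts. Higher loci held a median of 23 CpG at 2.096 CpG per 100 bp, and lower loci 14 CpG at 1.63 per 100 bp, with 16 CpG and 1.82 per 100 bp over all loci. Repeat-masked sequence made up a median of 45.6% of a higher locus, 20.3% of a lower locus and 23.2% of all loci. The sizes of the differences were modest in both directions. The median log2 fold change was 0.53 for higher loci and -0.69 for lower loci, and the smallest absolute value of any called locus was 0.27.

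A locus with few counts needs a larger fold change to pass, and the median SE of the log2 fold change was 0.18 for higher and 0.24 for lower loci. The direction of calls turned along the range of coverage. In the decile of loci with the highest mean counts 341 were higher and 36 lower in MS, and in the decile with the lowest mean counts 47 were higher and 179 lower. The median log2 fold change over all loci of these deciles, called or not, was 0.15 and -0.07. With a loess offset on abundance in place of TMM the highest decile held 112 higher and 114 lower, and the lowest 0.565% higher and 0.549% lower. With total counts as the only scaling they held 26 and 177 (0.139% and 0.943%), and 10 and 402 (0.0533% and 2.14%). In that fit 0.103% of all loci were higher and 1.98% lower. Because these classes count loci and not animals, no test was run across them.

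**Figure D1:**
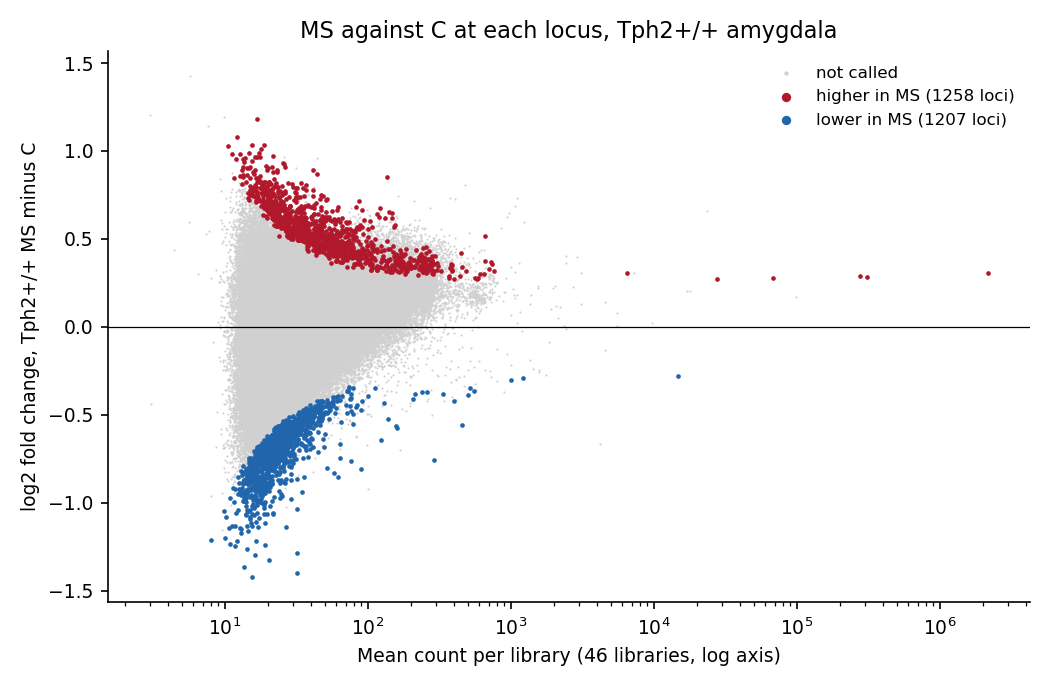
The log2 fold change of MS against C in Tph2+/+ (vertical axis) is plotted against the mean count of each locus (horizontal axis, log scale), with loci higher or lower in MS at the study limits coloured. Higher loci reach further to the right than lower loci, whose median mean count was 22.7 against 43.9.

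The same turn was seen along the other features of a locus. In the decile of widest loci 285 were higher and 52 lower, and in the narrowest decile 37 were higher and 135 lower. With the loess offset on abundance the widest decile turned to 37 higher and 151 lower and the narrowest to 89 and 71. With total counts alone they held 18 and 269 (0.0959% and 1.43%), and 6 and 323 (0.0320% and 1.72%). In the decile of highest CpG density 306 were higher and 33 lower, while in the lowest decile 0.741% were higher and 0.842% lower. In the decile with the most repeat-masked sequence 299 were higher and 56 lower, and in the decile with the least 55 and 123. With the loess offset on abundance the decile of highest CpG density held 183 higher and 51 lower (0.975% and 0.272%). That with the most repeat-masked sequence held 130 and 60 (0.693% and 0.320%), where 0.646% of all loci were higher and 0.574% lower. With a loess offset on CpG density the decile of highest CpG density held 223 and 155. With total counts alone the decile of highest CpG density held 29 higher and 126 lower (0.155% and 0.671%). That with the most repeat-masked sequence held 25 and 204 (0.133% and 1.09%). Over all loci in that fit the shares were 0.103% higher and 1.98% lower. Width, coverage, CpG density and repeat content go together in such data, and their separate parts in the pattern were not tested.

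**Figure D2:**
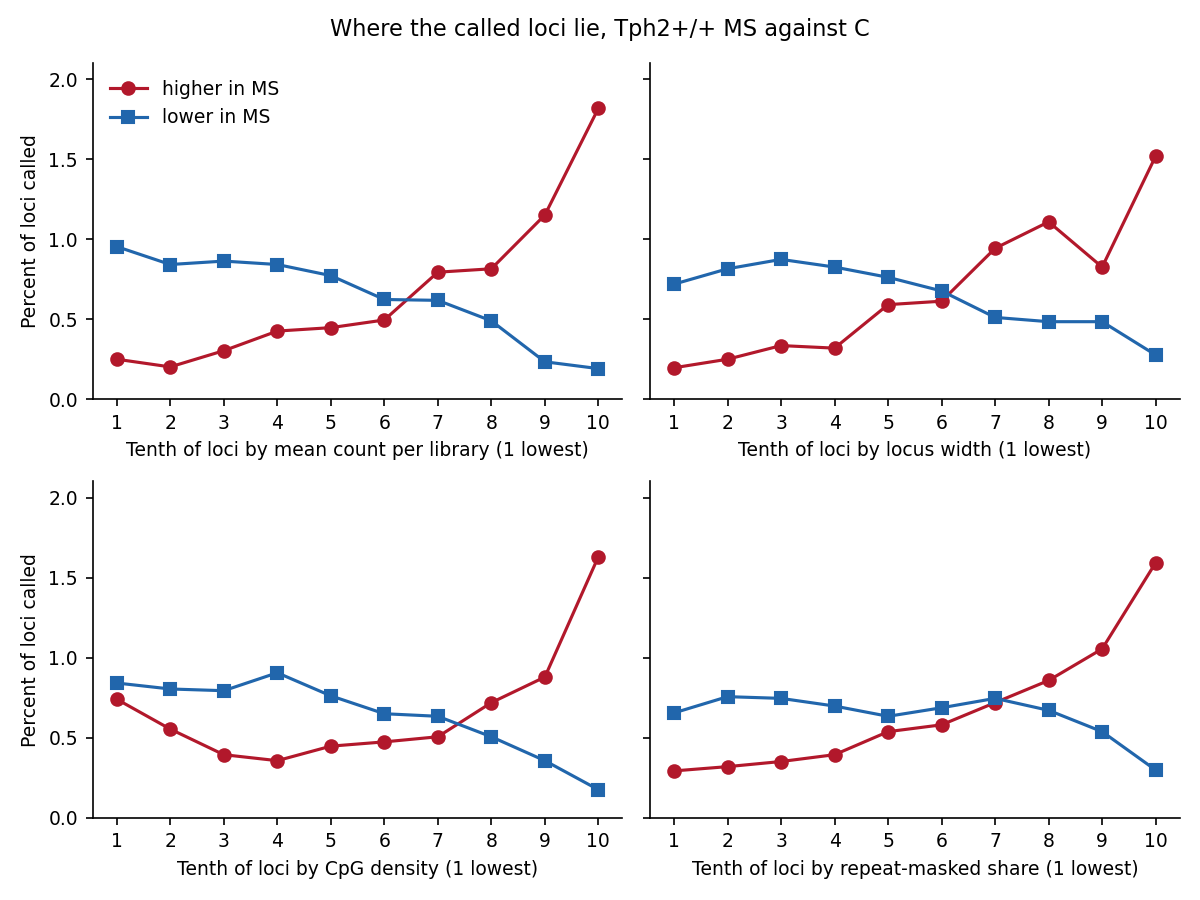
Percent of loci called higher or lower in Tph2+/+ MS (vertical axis) in each decile of loci ordered by mean count, width, CpG density or repeat-masked share (horizontal axis, decile 1 lowest). The share of higher calls is largest in the decile 10 of each feature, where it is 1.82%, 1.52%, 1.63% and 1.59%.

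By gene part, promoters stood out for higher loci and coding exons for their scarcity. A promoter was taken as the stretch from 1 kb before to 0.5 kb after the start of a protein-coding gene. Of 3202 promoter loci 47 were higher (1.47%, against 0.67% over all loci) and 14 lower (0.437%, against 0.643%). Loci that each hold over 0.5% of all counts, described below, are among those classed as promoters. In a fit without such loci 42 promoter loci were higher and 14 lower (1.31% and 0.437%). Of 32050 coding exon loci 111 were higher (0.346%) and 206 lower (0.643%). Introns held 377 higher and 392 lower of 59533 loci, and the space between genes 661 higher and 521 lower of 82591. The remaining loci lay in untranslated regions, with 16 higher and 22 lower of 2513, and in non-coding exons, with 46 and 52 of 7806. Loci inside a gene made up 46.2% of the higher, 56.8% of the lower and 55.5% of all loci. Loci centred 1 to 5 kb from a protein-coding gene start were higher in 108 and lower in 71 of 13331 cases, and beyond 5 kb the shares of both directions were close to those of all loci.

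The X and Y chromosomes held mostly higher loci. On X 69 loci were higher and 3 lower of 3073, which is 2.25% and 0.0976%, and on Y 56 were higher and 5 lower of 2673. On the autosomes 0.623% were higher and 0.659% lower. The median log2 fold change over all loci was 0.15 on X and 0.12 on Y, against 0.0019 on the autosomes. Loci of the sex chromosomes were also rich in repeats and CpG. Their median repeat-masked share was 86.7% on X and 99.8% on Y against 22.4% on the autosomes, and their median CpG density was 2.66 and 2.38 per 100 bp against 1.80. Among the autosomes the share of higher calls ran from 0.505% on chromosome 19 to 0.796% on chromosome 14, and the share of lower calls from 0.459% on chromosome 7 to 0.820% on chromosome 1.

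**Figure D3:**
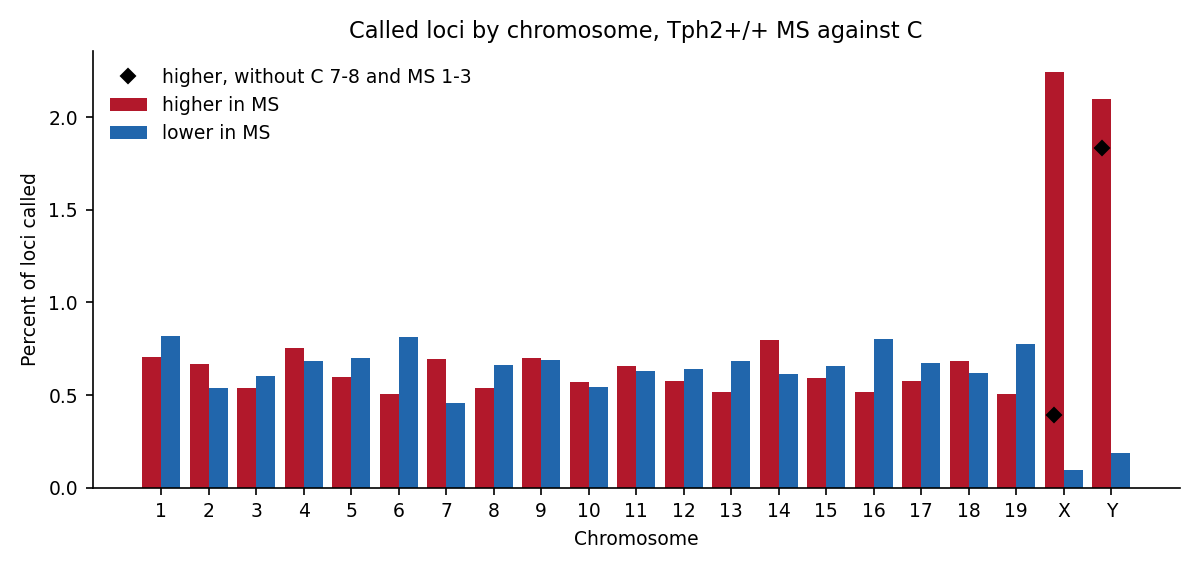
Percent of loci called higher or lower in Tph2+/+ MS on each chromosome, with black diamonds for the higher share when C replicates 7 and 8 and MS replicates 1 to 3 are left out. X and Y reach 2.25% and 2.095% for higher loci with all libraries, and without these libraries the share on X falls to 0.390% while Y stays at 1.83%.

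Some of these patterns of position changed when the MS libraries of lowest and the C libraries of highest sample number were left out. The C libraries carry sample numbers 2 to 16, 46 and 48, and the MS libraries 21 to 41, so no stretch of consecutive numbers holds both conditions, and sample order and MS cannot be told apart. MS replicates 1, 2 and 3 had the highest slopes of count against CpG density (0.0904, 0.0388 and 0.0652, in log2 units per SD of CpG density among loci), and C replicates 7 and 8 the lowest (-0.0883 and -0.105). Over all 16 libraries the slope was 0.000984 ± 0.0613 in MS and -0.0387 ± 0.0407 in C (SD, n = 8 each, 2-sided exact permutation test p = 0.150, adjusted p = 0.150 over 3 library measures). With the 5 libraries left out, 5 MS and 6 C libraries remained and 1525 loci were called, of which 485 were among the 2465. The 5 libraries hold the highest slopes of MS and the lowest of C. Leaving them out was therefore bound to lower the MS minus C difference in slope, and the counts below are no test of its part. Fewer libraries also lower the power to call a locus, and the part of group size in the lost calls was not tested. Promoters then held 10 higher and 15 lower loci, X held 12 and 9, and the decile of highest CpG density 29 and 66. Y still held 49 higher and 4 lower, the decile of highest mean count 90 and 17, the widest decile 90 and 20, and the decile richest in repeats 147 and 58. Coding exons held 94 higher and 161 lower loci.

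Coding exons held more lower than higher loci in all 15 alternative fits and in all 16 fits that left out 1 library. Promoters held more higher than lower loci in 12 of the 15 and in all of the 16, X and Y in 14 of the 15 and all of the 16, and the decile of highest CpG density in 12 of the 15 and all of the 16. Leaving out MS replicate 1 alone reduced the higher calls from 1258 to 764, those in promoters to 23, on X to 27 and in the decile of highest CpG density to 94. The decile of highest mean count then held 122 higher loci, the widest decile 119 and the decile richest in repeats 139, and Y held 40, or 30 without C replicate 1. With total counts as the only scaling the median of all loci was -0.11 and only 193 loci were higher against 3721 lower, so directions are stated here relative to the TMM scaling. On that scale promoters held 8 higher and 53 lower loci (0.250% and 1.66%) and X 14 and 21 (0.456% and 0.683%). Over all loci the shares were then 0.103% and 1.98%.

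**Figure D4:**
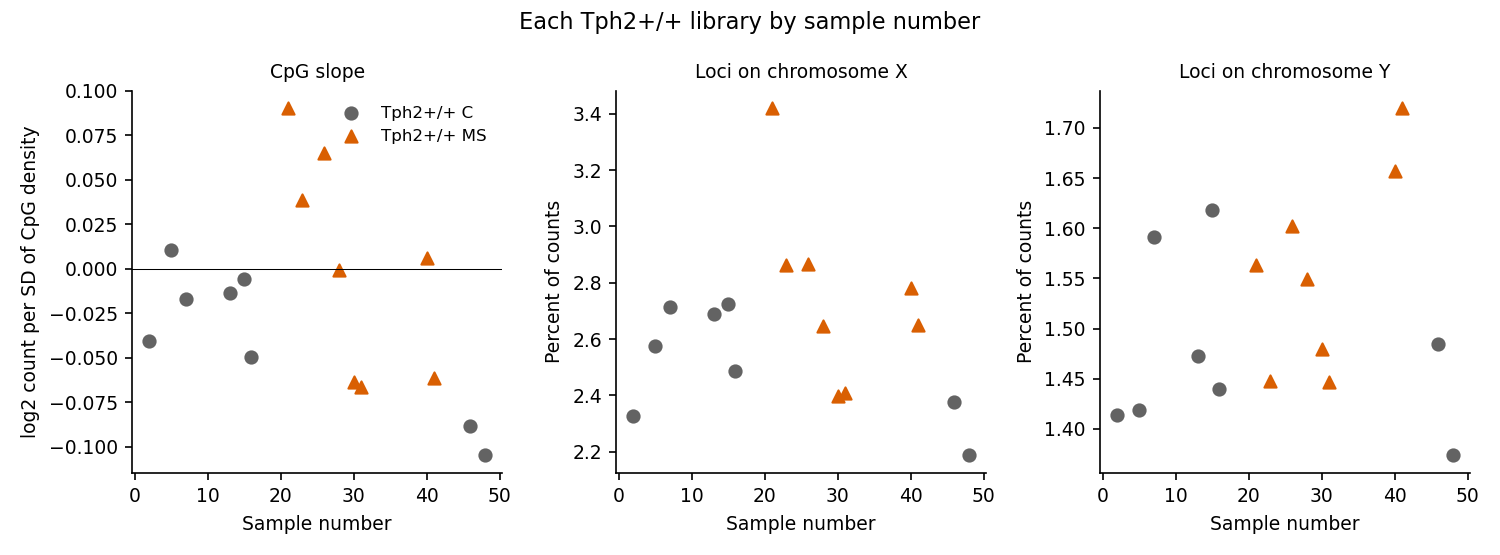
The slope of count on CpG density and the percent of counts on X and Y (vertical axes) of the 16 Tph2+/+ libraries are plotted against the sample number in the labels (horizontal axis), C and MS in different colours. The 3 MS libraries of lowest number have the highest slopes, and MS replicate 1 has the highest share on X, 3.42%.

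Compared over animals, the share of a library's counts in each class did not differ past the adjusted limit. After the 5 loci that each hold over 0.5% of all counts were set aside, 0 of 42 classes of gene part, CpG density, width, mean count and chromosome passed (2-sided exact permutation test, smallest adjusted p = 0.131), and 8 had an unadjusted p below 0.05. X took 2.75% ± 0.325 of counts in MS and 2.51% ± 0.199 in C (exact permutation test, adjusted p = 0.159), and Y 1.56% ± 0.0990 and 1.48% ± 0.0866 (exact permutation test, adjusted p = 0.166). Promoters took 2.18% ± 0.0828 and 2.18% ± 0.0715 (exact permutation test, adjusted p = 0.962), and coding exons 16.9% ± 0.598 and 17.4% ± 0.555 (exact permutation test, adjusted p = 0.159). The fifth of loci of highest CpG density took 38.6% ± 4.02 and 35.9% ± 2.28 (exact permutation test, adjusted p = 0.195), all as mean ± SD with n = 8 per group. With the 5 large loci kept in the total, 34 of the 42 classes passed and 12 changed sign, so the answer turned on that denominator.

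The 5 large loci lie at predicted genes, and between 40.2% and 95.3% of each is repeat-masked. The largest, at Gm10721 (chromosome 9, 2999846 to 3038818, GRCm38), took 21.9% ± 1.91 of counts in MS and 19.4% ± 1.34 in C (SD, n = 8 each, exact permutation test p = 0.00544, adjusted p = 0.0163), a comparison added after the data were seen. The difference was 2.49 percentage points, and without the 5 libraries of early and late number it was 2.57 (n = 5 MS and 6 C, exact permutation test p = 0.0195, adjusted p = 0.0584). Its log2 fold change was 0.31 (SE 0.10), and those at Gm21738 on chromosome 14, Gm10800 on chromosome 2 and Gm33838 on chromosome 9 were 0.29, 0.29 and 0.28, all called. The call at Gm21738 was lost without MS replicate 1, and those at Gm10721, Gm10800 and Gm33838 were lost without MS replicate 1 and also without MS replicate 7. Without MS replicate 1 the log2 fold changes of these 4 loci were between 0.23 and 0.24. The fifth, at Gm10801 beside Gm10800, was at 0.17 (edgeR adjusted p = 0.778) and not called. With a loess offset on abundance in place of TMM these 5 values were between -0.22 and -0.10. The totals of the MS libraries were lower than those of C, 10.2 ± 0.888 against 11.3 ± 0.824 Mcounts (SD, n = 8 each, exact permutation test p = 0.0188, adjusted p = 0.0282). The difference was -1.15 Mcounts, and without the 5 libraries it was -1.38 (n = 5 MS and 6 C, exact permutation test p = 0.0390, adjusted p = 0.0584). The part of depth in the direction of calls was not tested.

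Among the 12 loci that were lower with the smallest p, 7 lay between genes. The leading locus, whose window of 4 CpG is printed above, lay 26380 bp from Gm24212, a small nucleolar RNA gene (chromosome 8, 89693684 to 89694763). It held between 1.98 and 5.03 CPM, the count scaled to a common library total, in C, with a median of 3.02, and between 0.388 and 2.46 in MS, with a median of 1.48. Of the 8 MS libraries 7 were below every C library, and the log2 fold change was -1.14 (SE 0.24, unadjusted p = 9.4e-06, adjusted p = 0.592, edgeR). This locus was called in each of the 15 alternative fits.

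Near Gm15427 (chromosome 1, 95451566 to 95452503) the range was 2.12 to 5.44 CPM in C (median 4.01) and 0.756 to 3.62 in MS (median 1.22). The 2 groups overlapped there, with 6 MS libraries below all C libraries, and the log2 fold change of -1.40 (SE 0.29) was the largest decrease named.

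Genes hit inside by lower loci included Adk, whose product adenosine kinase clears the inhibitory modulator adenosine. The Adk locus, in a non-coding exon on chromosome 14 (21106529 to 21107307), ran from 2.05 to 4.08 CPM in C (median 2.76) and from 1.16 to 1.85 in MS (median 1.38). The groups did not overlap, and the log2 fold change was -0.96. Tmcc1, which encodes a membrane protein of the endoplasmic reticulum, was lower at a coding exon on chromosome 6 (116021799 to 116022648) by a log2 fold change of -1.03. There 6 MS libraries were below all C libraries, whose range was 2.52 to 6.27 CPM against 0.533 to 3.08 in MS. Slc10a6, a carrier of steroid sulfates, was lower at a coding exon on chromosome 5 (103617912 to 103618824), from a median of 2.94 CPM in C to 1.39 in MS. An intron of the vomeronasal receptor pseudogene Vmn2r-ps87 on chromosome 7 (86877869 to 86878956) fell from a median of 3.57 CPM to 1.97 with no overlap of groups. The same lack of overlap was seen near the non-coding RNA genes 4930414F18Rik on chromosome 16 and B130011K05Rik on chromosome 11, at log2 fold changes of -0.89 and -1.07.

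Among the 12 higher loci with the smallest p, 7 lay between genes and 4 had near-identical copies elsewhere in the genome, against 1 of the 12 lower loci. The leading one lay 6300 bp from the pseudogene Gm48390 (chromosome 13, 59926640 to 59927725). It ran from 2.52 to 4.35 CPM in C (median 3.28) and from 3.02 to 7.81 in MS (median 5.78). Of the MS libraries 5 were above every C library, and the log2 fold change was 0.73 (SE 0.16). Without the libraries of early and late number its log2 fold change was 0.50 and it was not called.

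The locus near Gm43384 (chromosome 5, 61665157 to 61666077) was the only one of the 12 whose groups did not overlap. It ran from 1.76 to 3.12 CPM in C (median 2.32) and from 3.37 to 4.78 in MS (median 3.94), at a log2 fold change of 0.78 (SE 0.18). Inside Cdk14, which encodes a cyclin-dependent kinase, an intron locus on chromosome 5 (5381648 to 5382747) rose from a median of 3.67 CPM in C to 6.08 in MS. There 7 MS libraries were above all C libraries, and the log2 fold change was 0.72 (SE 0.17). Both loci were called in all 15 alternative fits. An intron of Acsl1, which activates long-chain fatty acids, rose from a median of 5.06 CPM to 7.69 on chromosome 8 (46480865 to 46482081).

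The remaining higher loci of this group were at or near Gm4177, Tmem229a, Gm28971, Gm28311, AC126695.1, n-R5s28, Tpcn2 and Gm37371, with log2 fold changes from 0.55 at Gm37371 to 1.18 at Tmem229a. Those near Gm28971 and Gm28311 are on Y and match 48 and 18 other places in the genome at 95% identity or more over at least 50% of the locus. At Gm4177 and Gm37371 there were 7 and 43 such places, so reads of these 4 loci cannot be placed with certainty. Further lower loci of this group were at or near Mroh2a, Gm28785 and Gm38122, with log2 fold changes of -0.57, -1.06 and -0.95. All 24 loci were called in each of the 16 fits that left out 1 library. They were picked for the smallest p with these libraries. Each such fit keeps the other libraries and the dispersion trend of the full fit, so this outcome was likely from the start. Without the 5 libraries of early and late number 8 of the 12 higher and 9 of the 12 lower were still called.

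**Figure D5:**
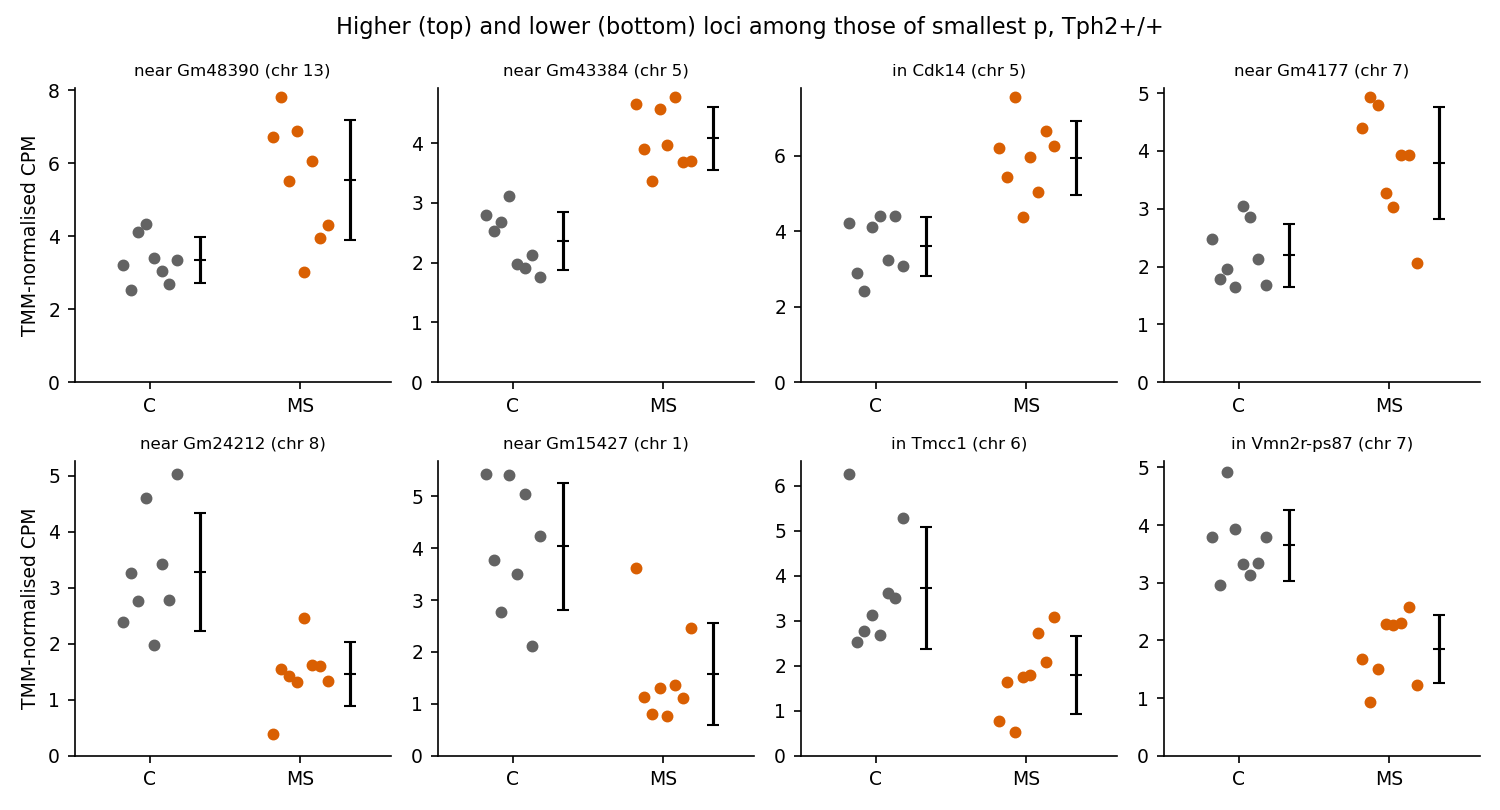
Normalised counts (CPM, vertical axis) of 4 higher and 4 lower loci in the 8 C and 8 MS libraries of Tph2+/+ mice, 1 point per library, with bars for the mean ± SD. The groups do not overlap near Gm43384 and in Vmn2r-ps87, and overlap at the other 6 loci.

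Loci of at least 20 counts with the largest fold changes added 5 loci. The largest increase was near the non-coding RNA gene 1700095A13Rik on chromosome 18 (83155662 to 83156620), from a median of 1.46 CPM in C to 2.95 in MS with no overlap, a log2 fold change of 0.97. Near Gm34342 on chromosome 1 and near Lrpprc, which encodes a mitochondrial RNA-binding protein, the values were 0.93 and 0.93, and neither was called without the 5 libraries of early and late number. On the lower side Gm26624 on chromosome 4 was at -1.33 and Slc30a4, a zinc transporter, at -1.28. The Slc30a4 locus lies in an untranslated region on chromosome 2, and 1 MS library (4.62 CPM) lay apart from the others.

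Of the 10 promoter loci with the smallest p, 8 were higher and 2 lower in MS. The smallest p was at a locus 352 bp from Tmem229a (chromosome 6, 24956649 to 24957280), a locus of 632 bp of which 68.5% was repeat-masked. It ran from 0.539 to 1.52 CPM in C (median 1.01) and from 0.822 to 3.29 in MS (median 2.12), with 7 MS libraries above all C libraries. Its log2 fold change was 1.18 (SE 0.29). The start of Gm7544 on chromosome 1 (82955353 to 82956327) rose from a median of 2.14 CPM to 3.49, a log2 fold change of 0.72.

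Promoters of genes with known roles in the brain were among the higher ones. Cartpt encodes the CART neuropeptide. The locus of 3252 bp at its start, with 101 CpG, ran from 23.7 to 39.6 CPM in C (median 33.7) and from 36.2 to 53.8 in MS (median 46.02). Of the MS libraries 5 were above all C libraries, and the log2 fold change was 0.42 (SE 0.12). Gabrb2 encodes a subunit of the GABA-A receptor, and its promoter locus on chromosome 11 (42418266 to 42419151) rose from a median of 1.69 CPM to 2.59, a log2 fold change of 0.76. Igdcc3, a cell-surface protein of the immunoglobulin family, was at 0.71, and Klf11, a transcription factor, at 0.52. The locus at the start of Omp, the olfactory marker protein, lies inside Capn5 and was at 0.72, and that at the start of Kank2 lies inside Dock6 and was at 0.58.

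The lower promoter loci were at Timd4, a receptor of macrophages for dying cells, at -0.99, and at Zfp993, a zinc finger gene, at -0.63. At Zfp993 the C libraries ran from 3.30 to 6.20 CPM and the MS libraries from 1.81 to 3.18, with no overlap, but 3 other places in the genome match this locus. Without the 5 libraries of early and late number 4 of the 10 promoter loci were called, those at Tmem229a, Omp, Zfp993 and Kank2. The call at Klf11 was lost without MS replicate 1, with a log2 fold change of 0.43 and an edgeR p of 0.0104.

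Most called loci had no other called locus of the same direction within 10 kb. Such a neighbour was present at 39 of the higher loci (3.10%) and 59 of the lower loci (4.89%), in 17 and 26 runs. Over all loci 0.67% were called higher and 0.643% lower. The share of all loci with such a neighbour was not computed. The longest lower runs, of 4 called loci each, lay on chromosome 1 from 88214387 to 88231724 and from 88247521 to 88276516. They lie more than 10 kb apart and were joined for the values below. The joined stretch spans 62.1 kb and holds the end of the Ugt1a cluster, Mroh2a and Hjurp. Ugt1a enzymes attach glucuronic acid to bilirubin, steroids and drugs, and Hjurp loads the centromere histone CENP-A. All 13 loci of the stretch were lower in value in MS and 8 were called. The sum of the 13 loci ran from 308 to 500 CPM in C (median 370) and from 265 to 377 in MS (median 307). The groups overlapped. In Tph2+/- mice the sum was 367 ± 41.8 CPM in C and 338 ± 52.2 in MS (SD, n = 8 each), and in Tph2-/- mice 358 ± 38.3 (n = 8) and 302 ± 55.3 (n = 6). Only 2 of the 8 loci were called in Tph2+/+ without the 5 libraries of early and late number.

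The longest higher run lay on chromosome 2 from 83959786 to 83993649, at the predicted genes Gm13691, Gm13693, Gm13694, Gm13695 and Gm13697, a tandem array whose units match 6 other places. There 5 of 6 loci were called. The sum ran from 180 to 214 CPM in C (median 193) and from 187.8 to 353 in MS (median 233), with MS replicate 1 the highest, and 0 of the 5 were called without the 5 libraries of early and late number. Further runs of 3 higher loci lay at Gm34342 on chromosome 1 and near Gm28891 on Y. At the latter the C sum ran from 7.50 to 12.1 CPM and the MS sum from 13.5 to 17.97, without overlap.

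Genes of the serotonin system held 112 loci, of which 2 were higher and 1 lower (2.68% called, beside 1.31% of all loci). The list as a whole had a median log2 fold change of 0.05 against 0.0059 over all loci. Htr7, a serotonin receptor that raises cyclic AMP, was higher at an intron locus on chromosome 19 (35983619 to 35984563), from a median of 1.91 CPM in C to 2.97 in MS, with 6 MS libraries above all C libraries (log2 fold change 0.76). Htr1d, an inhibitory receptor on serotonin terminals, was higher at an intron locus from a median of 1.87 CPM to 3.29 (log2 fold change 0.61). Ddc, which converts 5-hydroxytryptophan to serotonin, was lower at a coding exon from 2.25 to 1.07 (log2 fold change -0.75), a call lost in 10 of the 16 fits that left out 1 library. None of the 3 was called without the 5 libraries of early and late number. Tph2 itself, intact in all 16 animals, held 15 loci with 0 called, 0 at an unadjusted p below 0.05 and a smallest p of 0.0647 in the edgeR fit.

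Axon guidance genes had 10 called of 709 loci, a share of 1.41% that was close to the 1.31% of all loci. Of the 10, 9 were lower. Over all loci 0.67% were higher and 0.643% lower, and the direction of calls in the list was not tested. The lower loci lay in Robo1 and Robo2, receptors of Slit proteins, in Sema3d, Sema3e and Sema6d, in the semaphorin receptor Plxna4, in the ephrin receptor Epha3 and in the netrin receptor Dcc. Robo1 had 2 of them. The smallest p was at a Robo1 intron locus on chromosome 16 (72872167 to 72872911), with 1.88 to 2.66 CPM in C (median 2.30) and 0.616 to 2.26 in MS (median 1.34). There 7 MS libraries were below all C libraries, at a log2 fold change of -0.75. The Sema3d coding exon locus was at -0.81 and lost its call in 5 of the 16 fits that left out 1 library. The higher locus lay in a coding exon of Robo3 at 0.45 and lost its call in 2 of these fits. The median log2 fold change of the list was -0.03, close to the 0.0059 of all loci.

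Peptides and interneuron genes of the amygdala had 3 higher and 3 lower of 152 loci (3.95% called, beside 1.31% of all loci). Reln, the secreted protein reelin, held 1 higher and 2 lower intron loci. The higher Reln locus on chromosome 5 (22200700 to 22203069), repeat-masked over 88.8% and matching 6 other places, rose from a median of 17.3 CPM to 23.9, and that at 22022403 to 22023344 fell from 2.99 to 1.88. Cckar, a receptor for cholecystokinin, was higher at a coding exon at 0.36, a call lost in 6 of the 16 fits. GABA receptor genes had 2 higher of 92 loci (2.17%), Gabrb2 above and an intron of Gabrb1 at 0.32. The Gabrb1 call was lost in 11 of the 16 fits, and its locus matches 47 other places in the genome. Glutamate synapse genes had 2 higher and 2 lower of 468 loci (0.855%). Among them were introns of Grik3 and Grm8 at 0.43 and 0.86 and of Grin2a at -0.72. These 3 calls were lost in 1, 8 and 9 of the 16 fits.

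Genes of the stress axis had 1 called locus of 113 (0.885%, beside 1.31% of all loci), at the promoter of Crhbp, which binds corticotropin-releasing hormone. It ran from 4.24 to 5.91 CPM in C (median 4.69) and from 3.49 to 8.79 in MS (median 7.38), and the log2 fold change of 0.44 was lost as a call in 10 of the 16 fits. Neurotrophin and activity-induced genes had 2 higher and 1 lower of 100 loci, a share of 3%. Coding exons of Nr4a2 and Fosb were at 0.65 and 0.60. A locus within 5 kb of Sort1, in an intron of Mybphl, was at -0.83. These 3 calls were lost in 2, 3 and 10 of the 16 fits. The genes of the oxytocin and vasopressin system had 0 called of 26 loci, and 0 at an unadjusted p below 0.05 in edgeR.

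The methylation machinery had 1 called locus of 118 (0.847%, beside 1.31% of all loci), in a coding exon of Tet3, an enzyme that oxidises methylcytosine. At this Tet3 locus the C libraries ran from 0.656 to 3.21 CPM (median 1.01) and the MS libraries from 0 to 1.86 (median 0.513), a log2 fold change of -1.14. Without C replicate 3 it was -0.85 and not called. Imprinted genes had 3 higher and 1 lower of 187 loci (2.14% called). The CpG-rich promoter locus of Igf2r on chromosome 17 (12769100 to 12770197), which holds 112 CpG, ran from 0.412 to 1.35 CPM in C (median 1.01) and from 0.756 to 4.65 in MS (median 1.23). Its log2 fold change of 0.99 was lost as a call without C replicate 1, without MS replicate 1 and without MS replicate 2. It was 0.69 without MS replicate 1. This Igf2r locus also counts for the non-coding RNA gene Airn. The 2 further called loci inside or within 5 kb of Airn, at Mas1, were in opposite directions (0.51 and -0.79). Their calls were lost in 7 and 11 of the 16 fits. Grb10 held the remaining higher locus. Over all 10 gene lists between 0% and 3.95% of loci were called, against 1.31% of all loci.

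Among loci of cell type marker genes, oligodendrocyte markers had 1 higher of 66 (1.52%, an intron of Ugt8a, 0.66), astrocyte markers 0 of 62, microglia markers 1 lower of 75 (1.33%, an intron of Csf1r, -0.79), endothelial markers 2 higher (1.89%, Flt1 at 0.50 and Slco1a4 at 0.57) and neuron markers 0 of 75, beside 1.31% of all loci. The calls at Ugt8a, Csf1r, Flt1 and Slco1a4 were lost in 2, 5, 6 and 11 of the 16 fits. Captured DNA does not measure how many cells of a type were present, and the part of tissue composition was not tested.

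Of the loci that the study discusses, the one assigned to Cck lies on chromosome 9 (121477914 to 121478574), 2996 bp from Trak1. It ran from 0.988 to 2.62 CPM in C (median 1.89) and from 0.616 to 1.48 in MS (median 1.19), and its log2 fold change of -0.63 (edgeR adjusted p = 0.756) was outside the study limits. The locus assigned to A830073O21Rik lies in a coding exon of Fam174b on chromosome 7 (73774794 to 73775963). It was lower, from a median of 4.00 CPM in C to 2.47 in MS, with 5 MS libraries below all C libraries (log2 fold change -0.55). For both loci the paper reports less methylation after MS in Tph2+/+ mice, from Mann-Whitney U tests.

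The same loci in mice with less or no Tph2 have MS and C libraries of their own. Of the 1258 loci higher in Tph2+/+ MS, 79.7% had a positive log2 fold change in Tph2-/- mice, with a median of 0.20, and 68.3% in Tph2+/- mice, with a median of 0.07. Over all loci with a positive value in Tph2+/+ these shares were 60.9% and 55.8%. Of the 1207 lower loci 70.5% were negative in Tph2-/- and 62.8% in Tph2+/-, against 57.0% and 55.2% over all loci with a negative value. Few were called again. In Tph2-/- 75 of the higher and 38 of the lower loci were called in the same direction, 5.96% and 3.15%, where 0.843% and 0.632% of all loci were called. In Tph2+/- 8 and 12 were called, 0.636% and 0.994%, where 0.321% and 0.458% of all loci were. All 3 genotypes share 1 fit.

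The Tph2-/- values changed when 2 of the 6 MS libraries were left out. Tph2-/- MS replicates 2 and 4 had median deviations of 0.588 and 0.309 on the log2 scale from the Tph2+/+ mean at the 1258 higher loci, and CpG slopes of 0.242 and 0.131, while the deviations of the other 4 lay between -0.105 and 0.117. Without these 2, a choice made after the data were seen, 55.7% of the higher loci were positive in Tph2-/- (48.01% over all loci with a positive value in Tph2+/+) and 55.7% of the lower loci were negative (49.2%), with medians of 0.02 and -0.03. The loci called in the same direction then fell to 6 and 11, 0.477% and 0.911%, where 0.310% and 0.367% of all loci were called. These 2 libraries were picked for their deviations at the same loci, so lower shares without them were likely from the start. Fewer libraries also lower the power to call, and the part of group size was not tested. In Tph2+/-, MS replicate 1 stood apart likewise, with a median deviation of 0.263 and a slope of 0.161. Without it 59.1% of the higher loci were positive (52.4% over all loci with a positive value) and 60.0% of the lower loci negative (53.1%), and 6 and 10 loci were called in the same direction. This library was picked in the same way, so the same limits hold.

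Only 3 loci were called in the same direction in all 3 genotypes. They were a locus near Gm9195 on chromosome 14 (72368523 to 72370022), with log2 fold changes of 0.52, 0.48 and 0.62 in Tph2+/+, Tph2+/- and Tph2-/-, an intron locus of Cntfr on chromosome 4 (41681337 to 41682307), with 0.49, 0.54 and 0.86, and an intron locus of Cldn34d on X (76598179 to 76599534), with -0.76, -0.65 and -0.90. Cntfr encodes the receptor of ciliary neurotrophic factor. Without the 3 libraries that stood apart, 0 loci were called in all 3 genotypes in edgeR, and these 3 were at 0.45, 0.63 and -0.61 in Tph2-/- and at 0.44, 0.50 and -0.57 in Tph2+/-. Of the 12 leading higher loci 6 had the same sign in Tph2+/- and 9 in Tph2-/-, and of the 12 leading lower loci 9 and 11. Without the 3 libraries these counts were 7 and 7, and 9 and 5. The 5 large loci were negative in Tph2+/- mice, at -0.31 to -0.21, where they were positive in Tph2+/+. No locus among these differed between genotypes at an adjusted p below 0.05 in the interaction contrasts.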

How the data were processed

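DNA from the amygdala was captured with the methyl-CpG-binding domain and sequenced as paired-end reads of 50 bp. The authors mapped reads to GRCm38 with Bowtie2 2.1.0, called peaks with MACS, merged overlapping peaks and counted reads with DiffBind 2.0.9, and deposited raw counts per locus for 48 libraries, with no normalisation. The handling of duplicates and of reads that map to repeats is not given in the sources used here.

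The counts were fitted with edgeR 4.0.16 (R 4.3.3, TMM, trended dispersion, robust quasi-likelihood F-test, 1 term per group) over 46 libraries. In the Tph2-/- MS group the pair of libraries of lowest total was left out, since the study left out 2 of that group and the labels do not name them. CPM are counts scaled to a common TMM-adjusted total of 1e6. Share and total differences were tested with a 2-sided exact permutation test over all 12870 splits of 8 against 8 libraries. Fits that left out 1 library kept the dispersion trend of the full fit. Alternatives used DESeq2 1.42.0, limma 3.58.1 with voom, other scalings (the loess offset on abundance was built with limma), filters and samples. Scripts were tested on simulated data. Gene parts came from GENCODE M21 on the same build, in the order promoter, coding exon, UTR, non-coding exon, intron, with the rest between genes. Other places matching a locus were found with minimap2 2.31.

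Replicate numbers were not taken to pair the samples. Pairs of replicates within a group differed beyond sampling noise, by 2.05 to 5.24 in chi-square per locus, and none held identical values. The loci and gene lists were chosen with earlier results of these data known. Named loci were the 12 with the smallest p in each direction, the 3 with the largest fold change in each direction at a mean of 20 or more counts, 10 promoter loci, up to 3 loci per gene list, the longest runs within 10 kb, the loci over 0.5% of all counts, 2 loci the study discusses, and those of Tph2. Loci counted for a gene list lie inside or within 5 kb of its genes. Further called loci of a list are named only to complete its count, and the loci called in all 3 genotypes were chosen after their values were seen. Among the 12 leading lower loci 1 is counted but not reported here. Intervals for counting error were not computed, since replicate libraries give the spread.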

Additional observations from a re-analysis of the deposited data

Results flagged for a closer look

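Among the C and MS groups of 8 libraries at the 87 named loci, and in a few library measures, 15 held 1 library whose gap to the next, as a share of the group's range, exceeded Dixon's limit for 8 samples. Chance alone gives about 1 group in 20. All 15 were the highest library of their group, and the cause was not tested.

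In C, replicate 7 was highest at the Adk locus (4.08 CPM) and at the Tpcn2 locus (2.53 CPM), replicate 5 at Zfp993 (6.20 CPM), replicate 2 at the Gm34342 locus from 184740697 (3.78 CPM), replicate 3 at Tet3 (3.21 CPM) and replicate 6 at Gm10800 (30975 CPM). In MS, replicate 1 was highest at the Gm34342 locus from 184747252 (7.76 CPM), at Klf11 (8.14 CPM), at Gm13693 (57.7 CPM) and at Gm13691 (61.8 CPM), and in its share of counts on X (3.42%, next 2.87%). MS replicate 3 was highest at Tet3 (1.86 CPM). MS replicate 8 was highest at 3 loci that were lower in MS, Slc30a4 (4.62 CPM), the Reln locus from 22022403 (2.98 CPM) and the Hjurp locus from 88262544 (107.3 CPM).

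No named locus had an MS effect that differed between genotypes at an adjusted p below 0.05 (edgeR interaction contrasts). At an unadjusted p below 0.05, 49 of the 87 differed between Tph2+/- and Tph2+/+ and 22 between Tph2-/- and Tph2+/+. These loci were chosen for their value in Tph2+/+, which enters both differences, so these counts support nothing on their own.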

How the results depend on the processing

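In the 46-library fit 2465 loci were called, 1258 higher and 1207 lower. With total counts as the only scaling there were 3914 (193 higher, 3721 lower), without MS replicates 1 to 3 there were 1407 (696 and 711), and without these and C replicates 7 and 8 there were 1525 (826 and 699). With all 48 libraries 796 were higher. Leaving out 1 library at a time gave 1682 to 3127 calls, 764 to 1707 higher and 918 to 1543 lower, with the lowest values without MS replicate 1. The other alternatives kept all 3 counts within 1.5 times, and no called locus was called in the opposite direction in any fit. The labels do not say that a replicate number marks a shared litter or day, and the deviations of same-numbered libraries correlated at -0.141 to 0.143, with 1 of 8 libraries closest to its own number. The fit with the replicate block gave 2623 calls. Of the values of single named loci under these alternatives, 461 lost their call. Without the 5 libraries of early and late number 56 of the 87 named loci lost it. The loci at Gm10801 and that assigned to Cck had no call to lose.

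With a loess offset on abundance the log2 fold change turned negative at Gm21738 (-0.11), Gm10800 (-0.12), Gm10721 (-0.11), Gm33838 (-0.10) and Gm10801 (-0.22). With all counts as denominator 34 classes of loci passed the adjusted limit in place of 0. The MS minus C share in promoters was -0.0174 percentage points without C replicates 7 and 8, -0.0478 without MS replicates 1 to 3 and -0.0672 without both. Without both, a choice made after the data were seen for shares and slopes, the differences were also negative for the fifth of highest CpG density (-0.678), that of highest mean count (-0.0122), X (-0.00911) and the CpG slope (-0.0179). The causes were not tested. At the median locus of 26.96 counts the SE of a log2 fold change was about 0.22, and no called change was smaller than 0.27.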
